A study of Mus musculus with 10 samples.

Results

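Genes of the γδ T cell receptor were followed in the T cells of mouse spleen. They were chosen by name as Trdc, Trgc1, Trgc2, Trgc4 and Trgv2, and all 5 were listed among the 20617 genes of the table. Bulk RNA sequencing had been done on spleen CD3+ T cells from Nf1OPG mice, a model of optic pathway glioma. All mice carried one floxed and one mutated copy of Nf1 (Nf1 flox/mut; GFAP-Cre), on a C57BL/6 background. The Cre recombinase is driven by the GFAP promoter and inactivates Nf1 in neuroglial progenitors, so that the other cells of the body, T cells among them, have the germline mutation only. The 5 OVA libraries (replicates 6 to 10) came from mice with an asthma model, given weekly intraperitoneal ovalbumin (OVA, from chicken egg) for 2 weeks in a volume of 0.5 mL, at 16 µg/mL with aluminum hydroxide at 2 mg/mL, and then 4 intranasal doses. The 5 PBS libraries (replicates 1 to 5) were the vehicle controls. Mice were treated from an age of 4 weeks until 6 weeks, and the age at which the spleens were taken for sequencing is not given in the sources used here. The isolation kits named for the cells are for CD4 and for CD8a, whereas most γδ T cells carry neither, so that the share of γδ T cells kept by the isolation is not known. No source says whether each library was 1 mouse or a pool, and p-values measure the spread between libraries.

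T cells recognise their targets through a receptor of paired chains, αβ in most of them and γδ in a minority. Each chain joins a variable (V) segment to a constant (C) gene. Trdc is the only δ constant gene, whereas mouse γ chains use Trgc1, Trgc2 or Trgc4, and Trgc3 is a defective copy. The γ locus is built as units of V segments with their own constant gene, and T cells with different γ chains settle in different tissues. In the spleen, γδ T cells that make interferon γ or interleukin 17 are both found.

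In GENCODE M21 (GRCm38), Trdc lies on the plus strand of chromosome 14 (54142851 to 54148868), within the α locus. The γ genes lie on chromosome 13, with Trgc1 at 19214103 to 19217024 and Trgc4 at 19344558 to 19352756 on the plus strand. Trgc2 (19304649 to 19307551) and Trgv2 (19336573 to 19337167) are on the minus strand. The start of each of these genes was the same in the deposited table. Trdc shares 207 exonic bases with Trdv5, which is on the opposite strand, and as no source states that strand was used in counting, reads there cannot be assigned to either gene.

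The γ constant genes are copies of one another, which bears on how reads are split among them. The first 120 bases of the first constant exon are shown as transcribed, in lower case with capitals where a base is not that of Trgc1. They are chr13:19214103-19214222 for Trgc1, chr13:19307432-19307551 on the minus strand for Trgc2, chr13:19260885-19261004 for Trgc3 and chr13:19344558-19344677 for Trgc4. The stretch of Trgc3 starts at the second base of its first annotated exon, where its constant-gene transcript begins.
Trgc1: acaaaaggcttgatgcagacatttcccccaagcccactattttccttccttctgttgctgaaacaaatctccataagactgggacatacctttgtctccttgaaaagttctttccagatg
Trgc2: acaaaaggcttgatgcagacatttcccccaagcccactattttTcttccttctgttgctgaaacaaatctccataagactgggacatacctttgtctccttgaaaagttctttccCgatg
Trgc3: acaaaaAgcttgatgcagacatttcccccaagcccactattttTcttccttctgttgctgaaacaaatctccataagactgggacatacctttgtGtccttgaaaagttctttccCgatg
Trgc4: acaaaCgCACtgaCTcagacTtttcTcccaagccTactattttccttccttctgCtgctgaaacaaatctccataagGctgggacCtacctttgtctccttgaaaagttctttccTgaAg
Over the first 330 bases, Trgc1 and Trgc2 were identical at 321 positions (97.3%), with a longest identical stretch of 71 bases. Trgc3 was identical to Trgc2 at 319 and to Trgc1 at 317 positions, with a stretch of 90 bases shared with Trgc1. Trgc4 stood apart, with 271 positions (82.1%) like Trgc1 and no identical stretch over 29 bases. The split of reads among Trgc1, Trgc2 and Trgc3 is therefore uncertain, and that of Trgc4 less so. Trdc has no such copy, and its constant region opens, at chr14:54142851-54142970, as follows.
Trdc: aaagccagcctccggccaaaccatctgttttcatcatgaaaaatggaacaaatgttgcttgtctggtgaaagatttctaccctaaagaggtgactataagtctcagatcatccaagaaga

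The names in the deposited table are out of step with the values, and the distance had to be settled before any gene could be read. A distance of 25 rows above the name, with 24 as a check, had been set at the outset from earlier work on the same table. Genes on both sides of the receptor genes, taken to be well expressed in these cells, were then examined, without the treatment groups. Trac had a mean of 22284 normalized counts at 24 rows and 529 at 25, and Trbc2 had 31784 at 24 and 10674, the value of Trbc1, at 25. Beyond the γ genes, Triap1 had 603 at 24 and 4.59 at 25, and Trib2 had 1551 at 24 and 75.8 at 25. Further down the table the order turned, as Tsc22d3 had 695 at 24 and 16892 at 25, and Ucp2 had 2.04 at 24 and 27059 at 25.

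**Figure D1:**
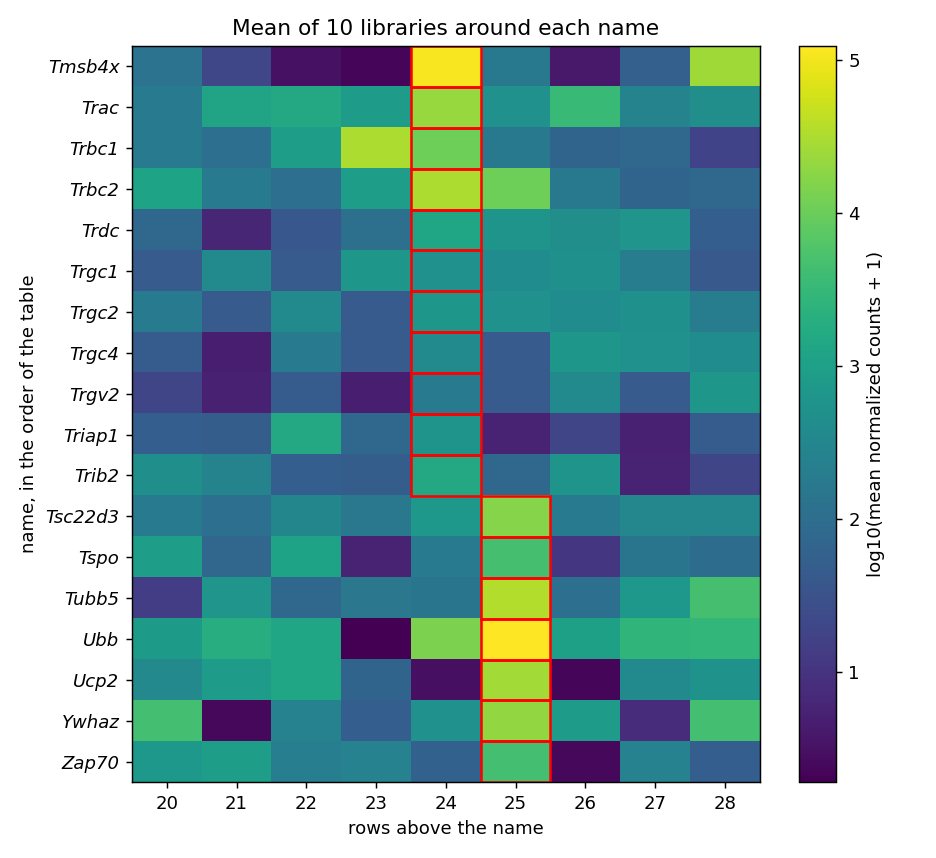
Mean over 10 libraries, as log10(mean normalized counts + 1) in colour, of the row of values that stands 20 to 28 rows above each name (x axis), for 18 names in the order of the table (y axis). Red boxes mark the distance used, which is 24 down to Trib2 and 25 from Tsc22d3, and Trac is brightest at 24 whereas Tsc22d3 is brightest at 25.

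Triap1 and Trib2 are weaker guides than Trac and Trbc2, as the row 22 above the name Triap1 had 1551, more than that at 24. With Trac and Trbc2 on one side and Triap1 and Trib2 on the other all higher at 24 than at 25, the receptor genes between them were read at 24. This choice departs from the distance first set and was made after the values had been seen. An alignment of all names to the values by annotation did not settle it. With changes of the distance limited to 1 row in its last rounds, it gave 24 a probability of 0.396 at Trdc and 0.261 at Trgv2, and 25 a probability of 0.603 and 0.730. In that version Triap1 and Trib2 were also put at 25, with a probability of 0.753 and 0.754. With changes of any size, it gave 24 a probability of 0.996 at Trdc, 0.993 at Trgv2 and 0.992 at both Triap1 and Trib2. At 25 rows, the name Trdc would take the row that belongs to Trbv5 at 24, Trgc1 that of Trf, Trgc2 that of Trgc1, Trgc4 that of Trgc3, and Trgv2 that of Trgv1. Both readings are given for the comparison of the groups.

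None of the 5 genes differed between OVA and PBS beyond the spread between libraries. In limma on log2(normalized counts + 1), 0 of the 5 had an adjusted p-value under 0.05, where 0.00494% of the 20249 rows tested did. At an unadjusted p-value under 0.05 the count was also 0 of 5, beside 9.77% of all rows. Of the 5 genes, edgeR and DESeq2 on recovered reads also called 0, where they called 0.00988% and 0.825% of all rows. The 2 groups overlapped in each of the 5 genes, and 1.78% of all rows had groups that did not overlap. In a bulk sample, fewer γδ T cells and less receptor RNA per cell cannot be told apart.

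Trdc, the constant part of every δ chain, had 2435, 1223, 1415, 1326 and 879 normalized counts in PBS replicates 1 to 5. In OVA replicates 6 to 10 it had 1471, 841, 1323, 1372 and 1085. PBS replicate 1 was the highest library, and OVA replicate 7 and PBS replicate 5 the lowest. The means were 1455.5 ± 584 (SD, n = 5) in PBS and 1218 ± 254 (SD, n = 5) in OVA. The difference was -0.20 on the log2 scale (SE 0.23), with an adjusted p-value of 0.809 in limma. An exact two-sided permutation test, not adjusted, gave a p-value of 0.508, where the smallest possible is 0.00794. The 95% interval of the difference ran from 0.617-fold to 1.22-fold. Without PBS replicate 1 the difference was 0.00.

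Trgc1, the constant gene of the unit that holds Trgv4 to Trgv7, had 639, 250, 817, 736 and 339 normalized counts in PBS and 437, 442, 531, 643 and 384 in OVA. The PBS libraries had both the highest and the lowest values, and all 5 OVA libraries lay between them. Its difference was -0.07 (SE 0.29), with an adjusted p-value of 0.953 in limma and a p-value of 0.849 in the exact permutation test. The sign turned to 0.04 when each library was scaled to the same total, where the median of all rows moved from 0.04 to 0.15. The 95% interval was 0.617-fold to 1.47-fold.

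Trgc2, which serves Trgv2, had 892, 437, 820, 545 and 414 normalized counts in PBS. In OVA it had 705, 510, 586, 757 and 936. Here OVA replicate 10 was the highest library and PBS replicate 5 the lowest. The difference was 0.21 (SE 0.23), with an adjusted p-value of 0.800 in limma, a p-value of 0.460 in the exact permutation test and a 95% interval of 0.820-fold to 1.63-fold.

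Trgc4, the constant gene downstream of Trgv1, had 639, 263, 435, 212 and 245 normalized counts in PBS and 364, 348, 247, 386 and 567 in OVA. PBS replicate 1 and OVA replicate 10 were the highest of their groups, and the lowest were PBS replicate 4 and OVA replicate 8. The difference was 0.17 (SE 0.29), with an adjusted p-value of 0.882 in limma, a p-value of 0.643 in the exact permutation test and a 95% interval of 0.731-fold to 1.73-fold.

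Trgv2, a variable segment, had 215, 134, 313, 141 and 140 normalized counts in PBS and 241, 147, 133, 201 and 212 in OVA. PBS replicate 3, the library with the fewest reads, was the highest. The difference was 0.03 (SE 0.26), with an adjusted p-value of 0.978 in limma, a p-value of 0.873 in the exact permutation test and a 95% interval of 0.694-fold to 1.51-fold. Read at 24 rows, depth was not near its floor for these genes, since the lowest number of recovered reads in any library was 113, for Trgv2.

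**Figure D2:**
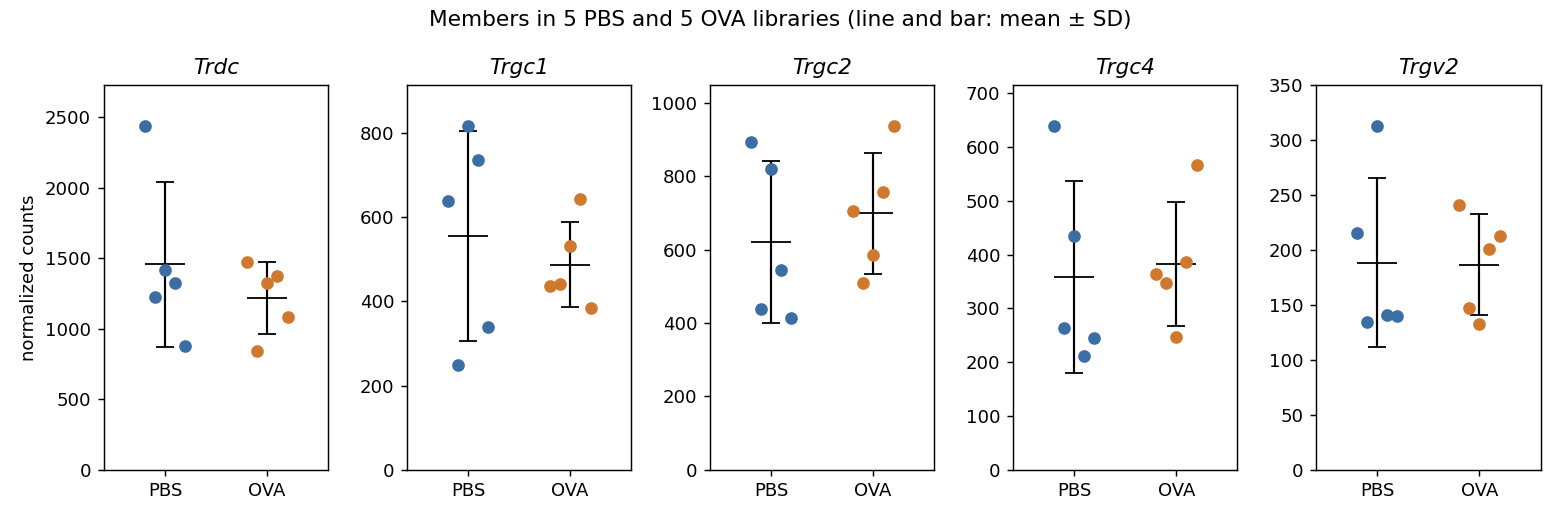
Normalized counts (y axes, from 0) of the 5 genes in each PBS (blue) and OVA (orange) library, with the mean and SD of each group as line and bar. The groups overlap in each panel, and PBS replicate 1 stands above the others for Trdc, at 2435.

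Read at 25 rows, the differences were -0.09 (SE 0.21) for the name Trdc, 0.28 (SE 0.38) for Trgc1, -0.07 (SE 0.29) for Trgc2, 0.46 (SE 0.60) for Trgc4 and 0.56 (SE 0.40) for Trgv2. Adjusted p-values in limma were between 0.663 and 0.953, and 0 of the 5 had an unadjusted p-value under 0.05, beside 9.77% of all rows. The lowest number of recovered reads at this distance was 8, for the name Trgc4 in PBS replicate 4. The signs for Trgc1 and Trgc2 were the opposite of those at 24 rows. At neither distance was a difference detected, but the levels depended on it, as Trgc4 had means of 359 in PBS and 382 in OVA at 24 rows, and 35.8 and 53.6 at 25.

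Levels were compared between genes per kilobase of exon. Trgc2 was the highest of the 5, at 722 ± 206 normalized counts per kilobase (SD over 10 libraries), followed by Trgc1 at 565 ± 198. Trgv2 (382 ± 122), Trgc4 (376 ± 145) and Trdc (346 ± 115) came next. The order rests on the annotated lengths, 3865 bases for Trdc and 914 to 985 for the 3 γ constant genes. Not divided by length, Trdc had the highest mean, at 1337 normalized counts beside 660.2 for Trgc2. Per kilobase, Trgc2 lay above Trgc1 in 9 of 10 libraries and above each of the other 3 in 10 of 10, although the first of these orders rests on how reads of near-identical copies were split. The 3 lower genes did not differ beyond their spread, with Trgv2 above Trgc4 in 7 and Trgc4 above Trdc in 6 of 10 libraries. The αβ constant genes stood well above, with Trac at 23833 ± 4880 per kilobase.

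**Figure D3:**
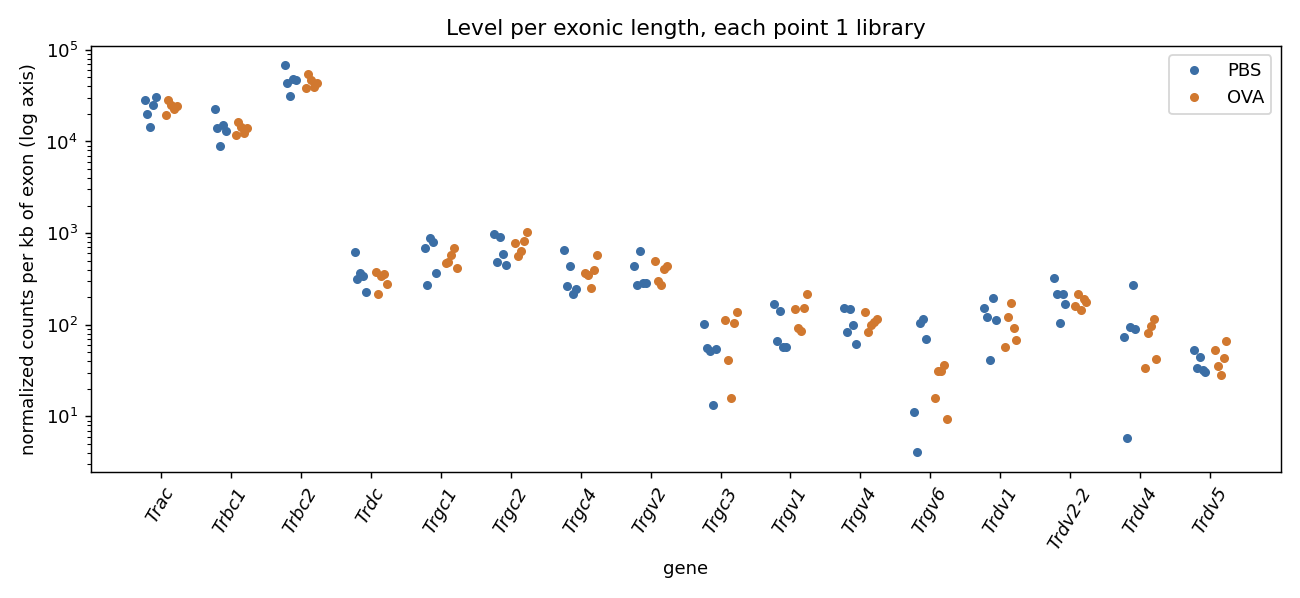
Normalized counts per kilobase of exon (y axis, log scale) of αβ constant genes, the 5 genes followed and further γ and δ genes with a mean above 10 (x axis), each point 1 library. Trac, Trbc1 and Trbc2 lie above each γ and δ gene shown, and PBS (blue) and OVA (orange) points overlap in each gene.

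The balance of δ to α chain RNA was next examined within each library, where it does not depend on the scaling. Per kilobase of exon (3865 bases annotated for Trdc and 935 for Trac), Trdc was 2.21%, 1.57%, 2.56%, 1.39% and 0.751% of Trac in PBS. In OVA it was 1.95%, 0.759%, 1.37%, 1.58% and 1.14%. Not divided by length, the ratio of normalized counts was between 3.10% and 10.6% in PBS and between 3.14% and 8.06% in OVA. The range of the PBS libraries held all 5 OVA libraries. The log2 ratio of Trdc to Trac was lower in OVA by a mean of -0.27, with a p-value of 0.500 in an exact two-sided permutation test. The α constant gene itself differed by 0.07 (SE 0.20) with an adjusted p-value of 0.933 in limma, and its sign turned under array weights, to -0.06. Of Trac, Trbc1 and Trbc2, 0 of 3 had an adjusted p-value under 0.05 in limma, where 0.00494% of all rows did. The same held for 0 of the 4 CD3 chains (Cd3d, Cd3e, Cd3g and Cd247), which carry the signal of both receptors.

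The table lists 12 further γ and δ genes, of which 0 had an adjusted p-value under 0.05 in limma, where 0.00494% of all rows did. At an unadjusted p-value under 0.05 there was 1, lower in OVA, where 2.65% of all rows were. This was Trdv2-1, a δ variable segment, with 2.81, 18.1, 8.31, 8.61 and 4.51 normalized counts in PBS and 0, 1.88, 2.84, 4.80 and 0 in OVA. Its groups overlapped, and 6 of 10 libraries had at most 3 recovered reads. The difference was -1.82 (SE 0.65), with an adjusted p-value of 0.350 in limma and a p-value of 0.0397 in the exact permutation test. The other 11 ranged from -0.62 for Trgv6 to 0.56 for Trgv1.

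The γ variable segments were not spread evenly over libraries. Trgv6, which with Trdv4 forms the receptor of γδ T cells that make interleukin 17, had 4.68, 1.72, 44.3, 49.5 and 29.8 normalized counts in PBS. In OVA it had 6.75, 13.1, 13.3, 15.6 and 3.93. PBS thus held the 3 highest libraries and the lowest one, and the difference of -0.62 (SE 0.77) had an adjusted p-value of 0.827 in limma. Trgv6 took between 0.837% and 19.2% of the recovered reads of the 7 γ variable segments, whereas Trgv2 took between 54.6% and 65.3%. Few reads stand behind Trgv6, 164 over all libraries. PBS replicates 1 to 5 had 5, 2, 16, 46 and 33, and OVA replicates 6 to 10 had 9, 21, 14, 13 and 5. Its lowest share, in PBS replicate 2, thus rests on 2 reads. Trgv1 had 63.7, 24.96, 52.6, 21.5 and 21.7 normalized counts in PBS and 55.5, 34.4, 32.2, 57.7 and 81.8 in OVA. Its difference of 0.56 (SE 0.40) had an adjusted p-value of 0.663 in limma.

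How the segments moved together over the 10 libraries is given as a description, and the points share a library's depth and its mix of cells. Trgv6 and Trdv4 had a Pearson r of 0.83 and a Spearman rho of 0.87, and r was 0.66 without the 2 libraries farthest from the median of Trgv6 (PBS replicates 2 and 4). Among constant genes, Trgv6 had its highest r with Trgc1 (0.63), the gene of its own unit, and negative values with Trgc2 (-0.14), Trgc3 (-0.54) and Trgc4 (-0.39). Trgv2 had its highest r with Trgc2 (0.81), again that of its unit. Trgv1 had 0.92 with Trgc4 of its own unit but 0.93 with Trgc2. In all, 4 of 7 γ variable segments had their highest r with the constant gene of their unit at 24 rows, and 1 of 7 at 25. Of the 4, Trgv3 (r = 0.32) and Trgv5 (r = 0.44) had at most 3 recovered reads in 7 and 4 of 10 libraries. Trgv4, of the unit of Trgc1, had 0.60 with Trgc1 but 0.87 with Trgc2. Of the constant genes, Trgc2 and Trgc4 had an r of 0.85 and a rho of 0.85, and r was 0.86 without PBS replicates 2 and 5. Trgc1 and Trgc4 had only 0.22. Trdc had an r of 0.50 with Trgc1, 0.60 with Trgc2 and 0.47 with Trgc4, and of the last only 0.14 was left without PBS replicate 1 and OVA replicate 7.

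**Figure D4:**
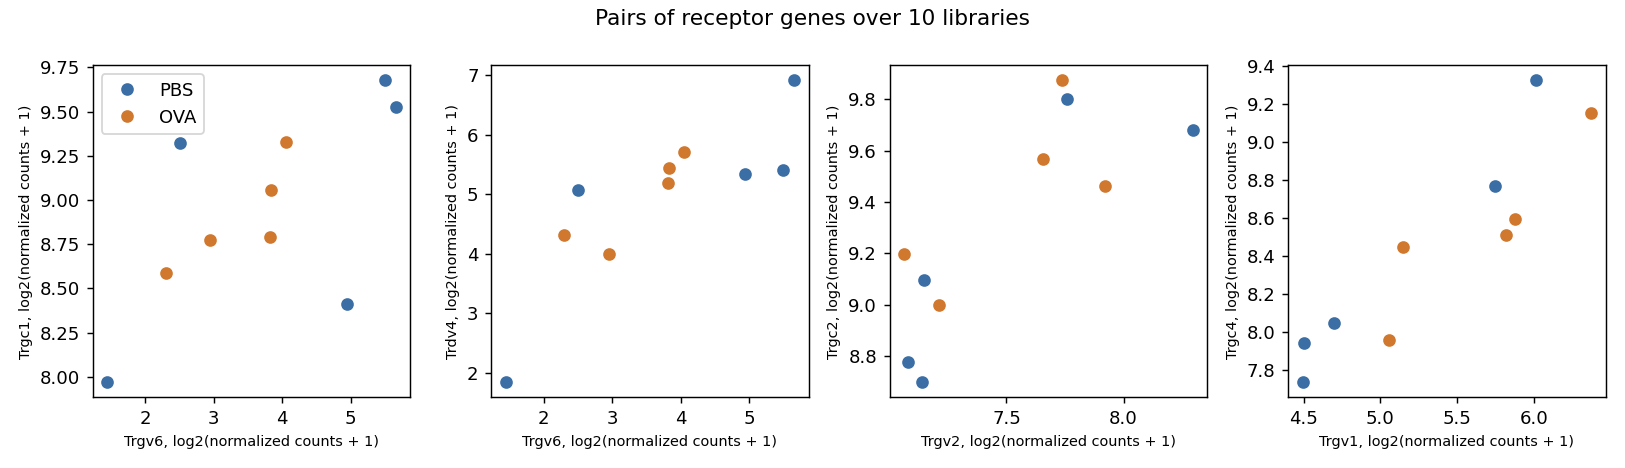
Log2(normalized counts + 1) of 4 pairs of receptor genes over 10 libraries, PBS in blue and OVA in orange. Trgv6 goes with Trgc1 (r = 0.63) and Trdv4 (r = 0.83), Trgv2 with Trgc2 (r = 0.81) and Trgv1 with Trgc4 (r = 0.92), with both groups along each cloud of points.

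The genes whose pattern was most like that of Trdc, among 12730 genes with a mean of at least 10 and a name placed with a probability above 0.9, were Bcas1 (r = 0.91), Selenos (r = 0.91), Kbtbd3 (r = 0.91), Rpp30 (r = 0.91) and Ccdc167 (r = 0.91). The share of genes with an r above 0.8 was 0.456%. The γ and δ genes were not among those compared, since their distance had a lower probability.

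Genes of the γδ program were then compared. Of the 24 genes used, 17 could be placed with a probability above 0.9, 6 could not and 1 was not in the table used here. None of the 17 passed an adjusted p-value of 0.05 in limma (lowest 0.316), and edgeR and DESeq2 also called 0 of 17. Of all rows, limma, edgeR and DESeq2 called 0.00494%, 0.00988% and 0.825% in this order. At an unadjusted p-value under 0.05 there were 3 of 17, all higher in OVA, where 7.12% of all rows were. Of the 17, 13 had a difference above 0 and 4 below it, and the median was 0.30, beside 0.04 for all rows tested. All rows leaned to OVA too, as 7.12% were higher and 2.65% lower at an unadjusted p-value under 0.05 in limma. The share of all rows above 0 was not counted, so the 13 of 17 describes this list only.

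The first of these, 5830411N06Rik, is a scavenger receptor gene of the same family as Cd163l1 and marks γδ T cells that make interleukin 17. It had 72.1, 102, 96.9, 155 and 198 normalized counts in PBS and 212, 227, 148, 227 and 231 in OVA. OVA replicate 8 lay below the top 2 PBS libraries, and the other 4 OVA libraries above all PBS libraries. The difference was 0.81 (SE 0.26), with an adjusted p-value of 0.316 in limma and a p-value of 0.0238 in the exact permutation test. Eomes, a T-box factor of natural killer and memory cells, differed by 0.37 (SE 0.15, adjusted p = 0.446 in limma), with a p-value of 0.0159 in the exact permutation test. Id3, an inhibitor of E proteins that γδ and naive T cells express, differed by 0.43 (SE 0.20, adjusted p = 0.504 in limma), with a p-value of 0.0873 in the exact permutation test. Maf, Sox13 and Blk, which act in the interleukin 17 fate, were within the spread, at 0.34 (SE 0.33), 0.44 (SE 0.42) and 0.30 (SE 0.32) in this order. So were Tbx21 (0.41, SE 0.24) and Ifng (-0.11, SE 0.31) of the interferon γ fate. The lowest difference was that of Klrk1, an activating receptor, at -0.47 (SE 0.25) with an adjusted p-value of 0.574 in limma. Klrb1c, a receptor of natural killer cells, was at -0.23 (SE 0.27), and Ccr6, a chemokine receptor of cells that make interleukin 17, was at -0.08 (SE 0.34).

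**Figure D5:**
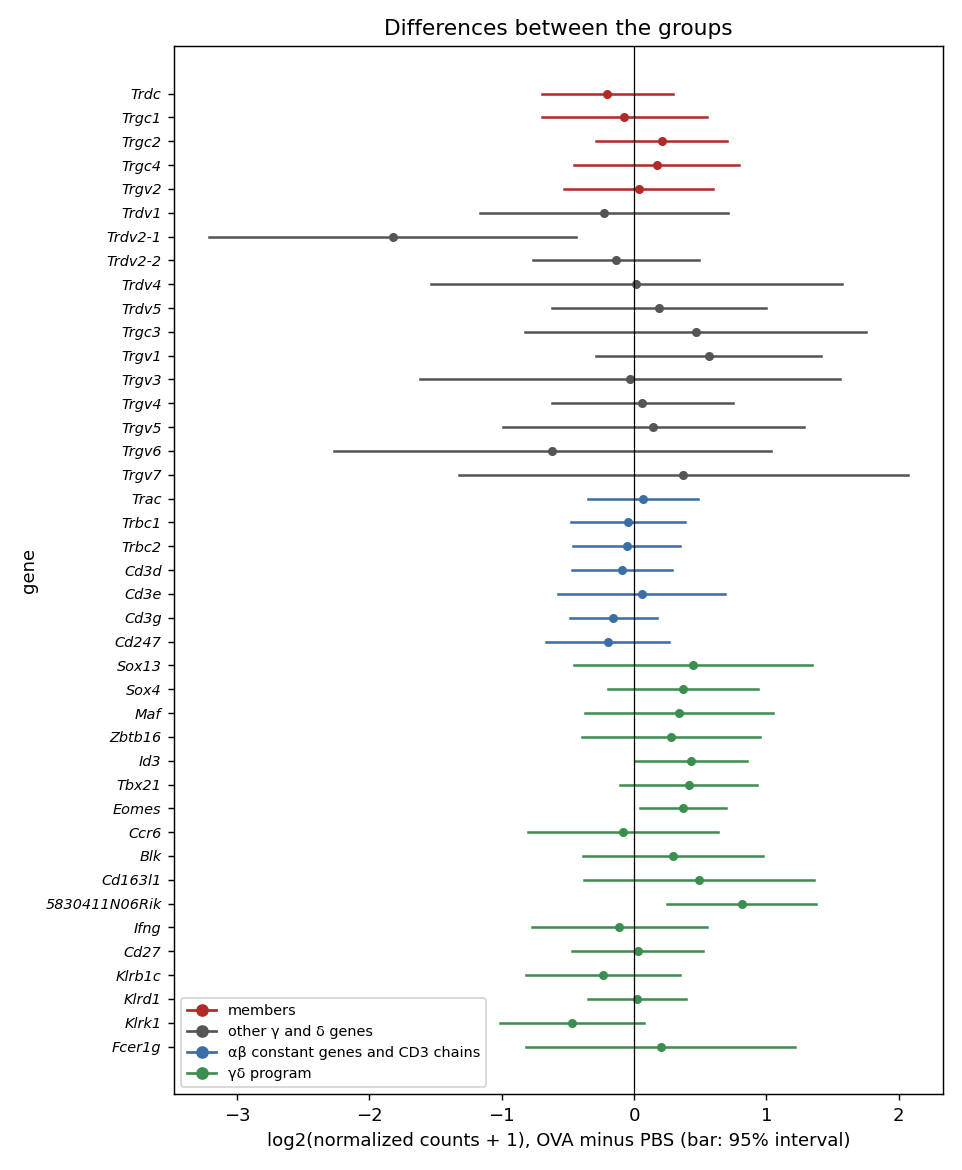
Difference of log2(normalized counts + 1), OVA minus PBS, with its 95% interval from limma (x axis), for the 5 genes followed (red), other γ and δ genes (grey), αβ constant genes and CD3 chains (blue) and the γδ program (green). The red intervals all include 0, and Trdv2-1 (-1.82) and 5830411N06Rik (0.81) are the points farthest from 0.

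The libraries held RNA of other cell types as well. All 14 T cell markers were placed, with sums between 110945 and 216464 normalized counts over both groups. Natural killer markers (5 of 5 placed), which share Klrb1c and Eomes with the γδ program, summed to between 508 and 985 in PBS and 584 and 888 in OVA. B cell markers (5 of 6 placed) summed to between 678 and 2335 in PBS and 699.7 and 6415 in OVA. Neutrophil markers (5 of 5 placed) ranged from 5957 to 19734 in PBS and 9229 to 51248 in OVA, and macrophage markers (5 of 6 placed) from 929 to 5569 and 730.0 to 9553. Erythroid markers (3 of 4 placed) ranged from 1004 to 6937 and 173 to 3630.0, and stromal markers (2 of 6 placed) from 5.16 to 41.5 and 47.4 to 78.1. No marker placed was at 0 in all libraries. The part of these cells in the values of the γ and δ genes was not tested.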

How the data were processed

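There were 5 PBS and 5 OVA libraries of spleen CD3+ T cells, grouped by the treatment in the labels. The authors demultiplexed reads with bcl2fastq (at most 1 mismatch in the index), aligned them to Ensembl release 99 with STAR 2.6.1d, and used Partek Flow 9.0 for gene counts, which were scaled by a median-ratio size factor for each library. The deposited values are thus normalized counts (signal). Values are whole multiples of 1 step in each library (at least 99.9% to within 0.1), which recovered between 6835696 (PBS replicate 3) and 29915782 (OVA replicate 7) reads. The floor of 3 reads equals 1.88 to 8.31 normalized counts and cover counting error only.

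Distances between names and values were estimated with a hidden Markov model of annotation and mean level (scikit-learn 1.9.0), without treatment groups. It placed 95.9% of 20597 simulated rows exactly, in the version with changes limited to 1 row in its last rounds. The simulated table was built from the model's own placement, with the values of some names removed, so that the distance only rose. In the deposited table the estimated distance also fell in places, as from 24 to 23. The simulation thus does not show which distance holds at the receptor genes. How many names of the deposited table were placed correctly was not tested. Of these names, 86.1% had a probability above 0.9. Receptor genes were read 24 rows above their names, in place of the 25 first set. This was decided after the values were seen, from genes nearby that were taken to be well expressed. The other genes took the model's distance, where its probability was above 0.9.

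Rows with a mean of at least 1 were tested on the log2(normalized counts + 1) scale with limma 3.58.1 in R 4.3.3, using its trend option, and p-values were adjusted by Benjamini-Hochberg over all 20249 rows. Fold changes on this scale understate those of low genes. Single genes had an exact permutation test. On simulated data for OVA against PBS, limma found 187 of the 200 genes, among 20249, given a log2 change of 3 in either direction. The 200 were drawn from genes with a mean of at least 10. This does not show whether differences as small as those of the 5 genes, or those of low segments, would be found. Alternatives were edgeR 4.0.16 and DESeq2 1.42.0 on recovered reads, other pseudocounts, scalings, minimum means and array weights, and leaving out each library. Named genes were the 5 members, all other γ and δ genes, the αβ constant genes, the CD3 chains, a γδ program list and the 5 genes most correlated with Trdc. A single gene of the program list is not reported here. Members and lists were chosen with earlier results of these data known. Exonic lengths and sequences came from GENCODE M21 (GRCm38).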

Additional observations from a re-analysis of the deposited data

Results flagged for a closer look

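Single libraries stood apart from their group in 2 of 40 groups of 5 examined, and chance gives about 1 in 20. For Trgv3, OVA replicate 9 had 14.4 normalized counts beside 0 to 2.999 in the other 4, and its gap to the next library was 0.792 of the range of the group. For 5830411N06Rik, OVA replicate 8 was the lowest of its group at 148, with a gap of 0.777 of the range.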

How the results depend on the processing

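No paired analysis was possible because PBS and OVA libraries share no replicate numbers. For each of the 5 genes, no alternative gave an adjusted p-value under 0.05 (lowest 0.510, for Trdc). The signs of the small differences were not stable. At 25 rows above the name, Trgc1 gave 0.28 and Trgc2 -0.073, and with each library at the same total Trgc1 gave 0.040. Leaving out 1 library at a time, Trdc ranged from -0.36 to 0.0037 (the upper value without PBS replicate 1), Trgc1 from -0.33 to 0.10, Trgc2 from 0.08 to 0.36, Trgc4 from 0.01 to 0.41 and Trgv2 from -0.067 to 0.24. The log2 ratio of Trdc to Trac ranged from -0.53 to -0.08. Trac ranged from -0.10 to 0.17, and gave -0.059 with array weights. The number of rows with an adjusted p-value under 0.05 was 1 in limma, 0 with a pseudocount of 0.1 or quantile normalization, 2 in edgeR or with array weights and 167 in DESeq2. Without 1 library it ranged from 0 to 135, the highest without PBS replicate 5. The causes were not tested. Depth limits Trdv2-1, Trgv3, Trgv5 and Trgv7, which had at most 3 recovered reads in 4 to 7 of 10 libraries. It also bears on Trgv6 and Trdv4, which had 2 and 3 recovered reads in PBS replicate 2.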
